A study of Rattus norvegicus with 12 samples.

Results

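The potassium channel genes measured here were the 89 genes of the count table whose symbol begins with Kcn, out of 17268 genes in all. The symbol was the only criterion, so the set holds pore-forming subunits and auxiliary subunits alike, in every cell type of the tissue. By symbol, 15 belonged to Kcna to Kcnd, 14 to Kcnj, 14 to Kcnk, 4 to Kcnq, 4 to Kcnn and 38 to other families. RNA was sequenced from the cerebral cortex of male rats (adult Sprague Dawley rats in the study's methods), with 3 libraries in each of 4 groups. Sham rats had the arteries exposed but received no clot. Model rats received a blood clot in the middle cerebral artery, an embolic stroke model, and no treatment. The rt-PA rats received the same clot and, 6 h later, recombinant tissue plasminogen activator, an enzyme that dissolves clots. The rt-PA+Acu rats received the clot, acupuncture at the Shuigou and Neiguan points at 2 h and rt-PA at 6 h. No group received acupuncture without rt-PA, so an effect of acupuncture alone cannot be told apart from one that needs rt-PA. In what follows the stroke comparison is Model minus Sham, the acupuncture comparison is rt-PA+Acu minus rt-PA, and "with acupuncture" refers to the rt-PA+Acu group. Values given with an SE are log2 fold changes, and those with an SD are mean levels of 3 libraries. The sources used here do not say when after the clot this tissue was taken, or that each library came from a separate rat, so p-values measure the spread between these libraries.

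Potassium channels let potassium leave or enter cells along its gradient, and with it set the resting potential, the width of action potentials and firing rate. Voltage-gated channels of the Kcna to Kcnd, Kcnh and Kcnq families open as neurons depolarise. Inward rectifiers of the Kcnj family and two-pore-domain (Kcnk) channels act near rest. In astrocytes, Kcnj10 takes up the potassium that active neurons release, and in ischaemia extracellular potassium rises as the sodium-potassium pump loses its ATP. Calcium-activated channels of the Kcnn family and Kcnma1 follow intracellular calcium, and Kcnip, Kcnab, Kcne and Kcnmb proteins modify the channels that they bind.

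Libraries held 11678450 to 13616935 counts, at which 3 counts stand for 0.208 to 0.262 CPM (counts per 1000000 counts of the library, scaled by the TMM method for library composition). Kcn genes took 0.510 to 0.586% of all counts in Sham, 0.380 to 0.429% in Model, 0.339 to 0.395% in rt-PA and 0.487 to 0.608% in rt-PA+Acu. The Sham and Model ranges did not overlap, and neither did those of rt-PA and rt-PA+Acu. Model replicate 3 stood apart from the other stroke libraries in 1 ribosomal protein gene, Rpl39, with 142 counts where Sham libraries had 105 to 151 and the 8 others 488 to 990, and counts without it are given beside the Model vs Sham counts. The label of cortex was checked with markers: cortical excitatory neuron markers summed to 1825 to 2070 CPM in Sham, and 5 markers of the neighbouring striatum summed to 186, 704 and 544 CPM in the 3 Sham libraries but at most 209 CPM in any library of the other groups. Of the 89 members, 71 had enough counts to be tested in all 4 comparisons, 6 in some of them and 12 in none, the last with at most 30 counts in any library, among them Kcnj13 and Kcnmb1.

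After stroke many more Kcn genes were lower than higher. Comparing Model with Sham asks what the untreated stroke did to this tissue, and of 73 Kcn genes tested 35 were lower and 10 higher in Model at an adjusted p under 0.05. Lower calls made up 47.9% of the Kcn genes against 26.6% of all genes tested, and higher calls 13.7% against 27.3%. With an absolute log2 fold change over 1 required as well, the rule for differentially expressed genes (DEGs), 18 were lower (24.7%, all genes 12%) and 5 higher (6.85%, all genes 9.43%). The median log2 fold change over the 73 genes was -0.61, while over all 12884 genes tested it was 0.01. In 48 of the 73 genes (65.8%, all genes 63.6%) no Model library overlapped a Sham library, so separation of the groups was about as common as elsewhere. Without Model replicate 3 the counts were 41 lower and 13 higher, of which 25 and 6 were DEGs. The 10 higher calls fell to 5 without Model replicate 2. In bulk tissue, fewer cells of a type and less RNA per cell cannot be told apart, and this holds for every result here.

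The opposite direction prevailed when rt-PA+Acu was compared with rt-PA, the comparison that asks what acupuncture added to late thrombolysis. Of 74 Kcn genes tested, 30 were higher and 9 lower in rt-PA+Acu. Higher calls made up 40.5% of Kcn genes against 17% of all genes, and lower calls 12.2% against 17.7%. Among DEGs, 22 were higher (29.7%, all genes 7.17%) and 5 lower (6.76%, all genes 8.16%), and the median log2 fold change was 0.55 against 0.00 over all 12999 genes. Libraries of the groups did not overlap in 45 genes (60.8%, all genes 51.1%). The count of lower calls was the less stable: it went from 9 to 4 without rt-PA replicate 1, to 3 without rt-PA+Acu replicate 1 and to 2 without rt-PA+Acu replicate 2. The 5 lower DEGs became 3 without rt-PA replicate 1, rt-PA replicate 2 or rt-PA+Acu replicate 1 and 2 without rt-PA+Acu replicate 2.

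**Figure D1:**
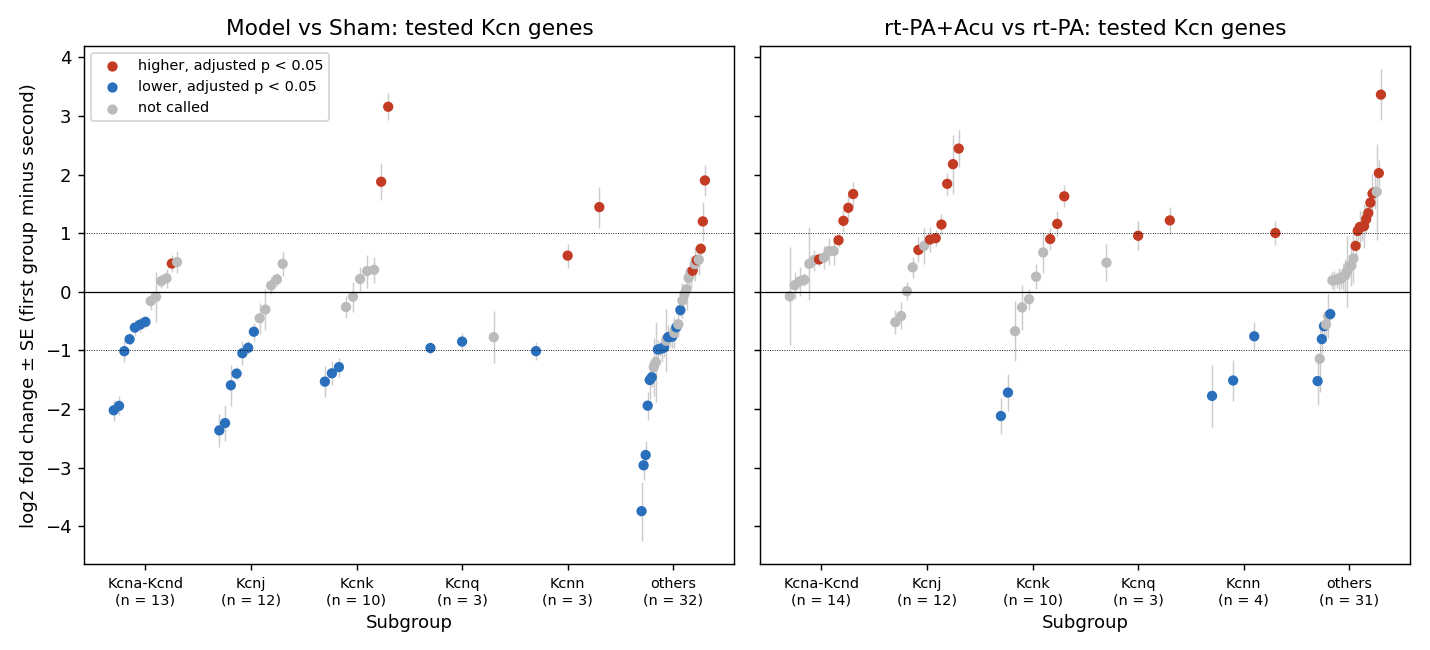
Log2 fold change of each tested Kcn gene (vertical axis, with its SE as a bar) by family group (horizontal axis) for Model vs Sham and rt-PA+Acu vs rt-PA, coloured by the call at an adjusted p under 0.05. No Kcnj gene was called higher in Model and 7 were called lower, while 7 were called higher in rt-PA+Acu.

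Model vs Sham and rt-PA+Acu vs rt-PA share no library, so their calls can be set side by side. Of the 35 Kcn genes that were lower in Model, 28 (80%) were higher with acupuncture than with rt-PA alone, and 34 (97.1%) had a positive log2 fold change there. Among all 3393 genes that were lower in Model and tested in both, 55.8% were called higher in rt-PA+Acu and 94.5% had a positive value. The 7 without a call were Kcna3, Kcnc2, Kcnh4, Kcnip1, Kcnip2, Kcnj5 and Kcnmb4, and Kcnip2 was the 1 with a negative value. Of the 10 that were higher in Model, 7 (70%) were lower in rt-PA+Acu, against 51.9% of the 3507 such genes overall. Kcnd3, Kcng3 and Kcnma1 were the 3 without a call. Another 4 Kcn genes, Kcnh7, Kcnj11, Kcnn4 and Kcns3, were called in the acupuncture comparison and not in the stroke comparison, where Kcnn4 had too few counts to be tested, which does not show that they differ between the comparisons.

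**Figure D2:**
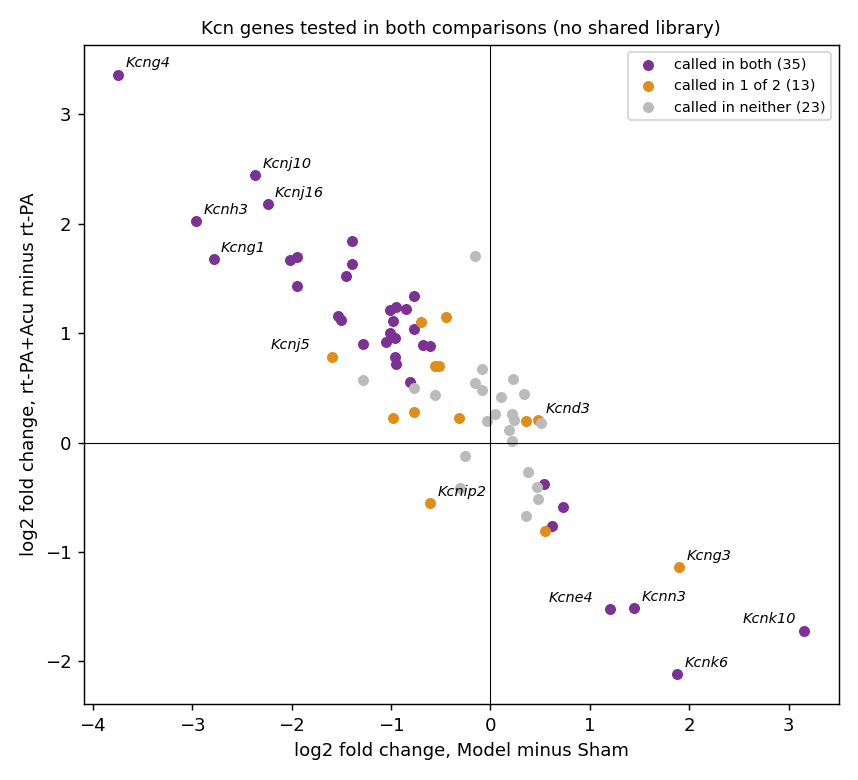
Each point is 1 of the 71 Kcn genes tested in both comparisons, with its log2 fold change in Model minus Sham (horizontal axis) and in rt-PA+Acu minus rt-PA (vertical axis). The 35 genes called in both lie in the upper left and lower right, and Kcnip2 lies below 0 on both axes.

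Among the voltage-gated Kcna to Kcnd genes, 7 of 13 tested were lower in Model (53.8%, all genes 26.6%) and 1 was higher (7.69%, all genes 27.3%). In rt-PA+Acu, 5 of 14 were higher than in rt-PA (35.7%, all genes 17%) and none lower (all genes 17.7%). The Kcnd subunits, which carry the fast A-type current of dendrites, went apart. Kcnd2 had 95.8, 118 and 128 CPM in the Sham libraries, 20.8, 29.7 and 33.5 CPM in the Model libraries, 28.9, 46.5 and 29.5 CPM with rt-PA alone and 126, 115 and 92 CPM with acupuncture added. All Model and rt-PA libraries lay below all Sham and rt-PA+Acu libraries, 4.06-fold lower in Model (log2 fold change -2.02, SE 0.18, adjusted p = 7.52e-05) and 3.18-fold higher with acupuncture (log2 fold change 1.67, SE 0.21, adjusted p = 0.00222). For Kcnd3, values were 109, 84.5 and 75 CPM in Sham, 127, 134 and 112 CPM in Model, 86.5, 78.4 and 87.8 CPM with rt-PA alone and 90.8, 94.5 and 106 CPM with acupuncture added. Kcnd3 was thus higher in Model, at 0.48 ± 0.14 (SE, adjusted p = 0.0215) on the log2 scale, a call that was lost without Sham replicate 2, Sham replicate 3 or Model replicate 2.

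Kcnc4 belongs with Kcnc1 and Kcnc2 to the channels that allow fast firing, and it is named because it had the second largest fall of these 13 genes, a choice made after its values were seen. Kcnc4 had 93.9, 68.2 and 70.3 CPM in the Sham libraries, 18.2, 18.5 and 23.5 CPM in the Model libraries, 25.4, 33.5 and 24.9 CPM with rt-PA alone and 97.9, 70.4 and 58 CPM with acupuncture added. The log2 fold change was -1.95 ± 0.16 (SE, adjusted p = 5.34e-05) in the stroke comparison and 1.43 ± 0.21 (SE, adjusted p = 0.0037) in the acupuncture comparison. Kcnc1 fell less, from 98 ± 14.7 CPM (SD, n = 3) in Sham to 64 ± 7.46 in Model (log2 fold change -0.61 ± 0.14 SE, adjusted p = 0.00575), and was higher with acupuncture (0.88 ± 0.12 SE, adjusted p = 0.0028). Kcnc2 was lower in Model (-0.51 ± 0.10 SE, adjusted p = 0.00334) and missed the threshold in the acupuncture comparison (0.70 ± 0.23 SE, adjusted p = 0.0504).

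Of the Kcna genes, which hold axons and their terminals near rest, Kcna2 and Kcna3 were lower in Model. Kcna2 had 454, 399 and 561 CPM in the Sham libraries, 175, 262 and 261 CPM in the Model libraries, 211, 346 and 266 CPM with rt-PA alone and 702, 649 and 553 CPM with acupuncture added. Its rt-PA+Acu libraries lay above all rt-PA libraries, and 2 of the 3 lay above every Sham library. The log2 fold change was -1.01 ± 0.18 (SE, adjusted p = 0.00186) in the stroke comparison and 1.21 ± 0.19 (SE, adjusted p = 0.00453) in the acupuncture comparison. Kcna1 went the other way without passing the test, with 247, 285 and 438 CPM in Sham and 485, 461 and 426 CPM in Model (adjusted p = 0.0538). Kcna4 and Kcna5 passed in neither comparison.

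Of the 12 inward rectifier (Kcnj) genes tested, 7 were lower in Model (58.3%, all genes 26.6%) and none higher (all genes 27.3%). In rt-PA+Acu, 7 were higher than in rt-PA (58.3%, all genes 17%) and none lower (all genes 17.7%). The other 5 in each comparison passed no test, and the 12 genes had median log2 fold changes of -0.82 and 0.84. Kcnj10 had 354, 461 and 420.5 CPM in the Sham libraries, 44.4, 89 and 106 CPM in the Model libraries, 64.6, 90.2 and 111 CPM with rt-PA alone and 668, 474 and 308 CPM with acupuncture added. Kcnj10 is the main potassium channel of astrocytes, and its lowest Sham or rt-PA+Acu library, at 308 CPM, was above its highest Model or rt-PA library, at 111 CPM. It was 5.15-fold lower in Model (log2 fold change -2.36, SE 0.28, adjusted p = 0.000265) and 5.44-fold higher with acupuncture than with rt-PA alone (log2 fold change 2.44, SE 0.31, adjusted p = 0.00223). Kcnj16, which joins Kcnj10 in a pH-sensitive channel, had 17.1, 11.1 and 8.03 CPM in Sham, 2.6, 2.37 and 2.64 in Model, 2.08, 1.8 and 4.28 with rt-PA alone and 17.9, 5.41 and 13.6 with acupuncture added. The groups separated as for Kcnj10 (-2.24 ± 0.31 SE, adjusted p = 0.000524 in the stroke comparison), but its rt-PA+Acu libraries spread over a wide range, and the call against rt-PA (2.18 ± 0.51 SE, adjusted p = 0.0152) was lost without rt-PA replicate 1 (adjusted p = 0.0565).

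Astrocyte markers moved with Kcnj10 and Kcnj16: all 6 were lower in Model and all 6 higher with acupuncture than with rt-PA alone. None was near 0, and the 6 together had 4945 to 5695 CPM in Sham, 2105 to 2400 in Model, 1789 to 2476 in rt-PA and 3428 to 4448 in rt-PA+Acu. Their median log2 fold changes were -1.42 and 1.00, against -2.36 and 2.44 for Kcnj10. Oligodendrocytes also express Kcnj10, and 5 of their 6 markers were lower in Model. In the acupuncture comparison all 6 had a positive log2 fold change but 0 were called. Their sums were 10390 to 15300 CPM in Sham, 1485 to 7369 in Model, 2390 to 9992 with rt-PA alone and 2906 to 18520 with acupuncture added. The part of either cell type in the fall of Kcnj10 was not tested.

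Kcnj4 had 95.3, 98.2 and 96.4 CPM in the Sham libraries, 34, 33 and 42.6 CPM in the Model libraries, 21.8, 19.2 and 25.4 CPM with rt-PA alone and 96.5, 78.4 and 63.4 CPM with acupuncture added. Kcnj4, a strong rectifier of forebrain neurons, was lower in Model (-1.40 ± 0.11 SE, adjusted p = 4.62e-05) and higher with acupuncture (1.84 ± 0.18 SE, adjusted p = 0.00118), and its 3 rt-PA libraries lay below all Model libraries. Kcnj2, the classical strong rectifier, fell from 33.4 ± 5.63 CPM in Sham to 16.1 ± 4.35 in Model (SD, n = 3, log2 fold change -1.05 ± 0.21 SE, adjusted p = 0.00332) and was at 28.4 ± 2.63 CPM in rt-PA+Acu (0.92 ± 0.14 SE, adjusted p = 0.00387 against rt-PA). Among channels that G proteins open, Kcnj3 and Kcnj9 were lower in Model (-0.68 ± 0.16 SE, adjusted p = 0.00667 and -0.95 ± 0.11 SE, adjusted p = 0.000231) and higher with acupuncture (0.89 ± 0.21 SE, adjusted p = 0.0152 and 0.71 ± 0.21 SE, adjusted p = 0.0359). Those 2 acupuncture calls were each lost without rt-PA replicate 1, rt-PA replicate 3 or rt-PA+Acu replicate 2, and that of Kcnj9 also without rt-PA+Acu replicate 1. Kcnj6, their usual partner in neurons, had 199, 195 and 247 CPM in Sham and 226, 251 and 263 CPM in Model, groups that overlapped (log2 fold change 0.21 ± 0.11 SE, adjusted p = 0.141). Kcnj5, a further partner named after its values were seen, was lower in Model (-1.59 ± 0.35 SE, adjusted p = 0.00548) and passed no test in the acupuncture comparison (0.79 ± 0.31 SE, adjusted p = 0.0843). In the RefSeq gene order, Kcnj9 and Kcnj10 are neighbouring protein-coding genes, and so are Kcnj16 and Kcnj2.

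The ATP-sensitive channel, which opens when ATP falls, pairs Kcnj11 or Kcnj8 with a sulfonylurea receptor. Kcnj11 values were 40.4, 33.2 and 44.6 CPM in Sham, 17.6, 28.1 and 40.5 CPM in Model, 21.1, 18.8 and 22.9 CPM with rt-PA alone and 57.6, 41.9 and 39.6 CPM with acupuncture added. Sham and Model overlapped (-0.45 ± 0.27 SE, adjusted p = 0.183), and rt-PA+Acu lay above rt-PA throughout (1.15 ± 0.17 SE, adjusted p = 0.00383). Its receptor Abcc8 was also higher in rt-PA+Acu (0.55 ± 0.16 SE, adjusted p = 0.035), with no call in the stroke comparison (-0.04 ± 0.20 SE, adjusted p = 0.882). Kcnj8, the pore of the pericyte channel, passed in no comparison, while its receptor Abcc9 was lower with acupuncture than with rt-PA alone (-0.49 ± 0.14 SE, adjusted p = 0.0307).

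**Figure D3:**
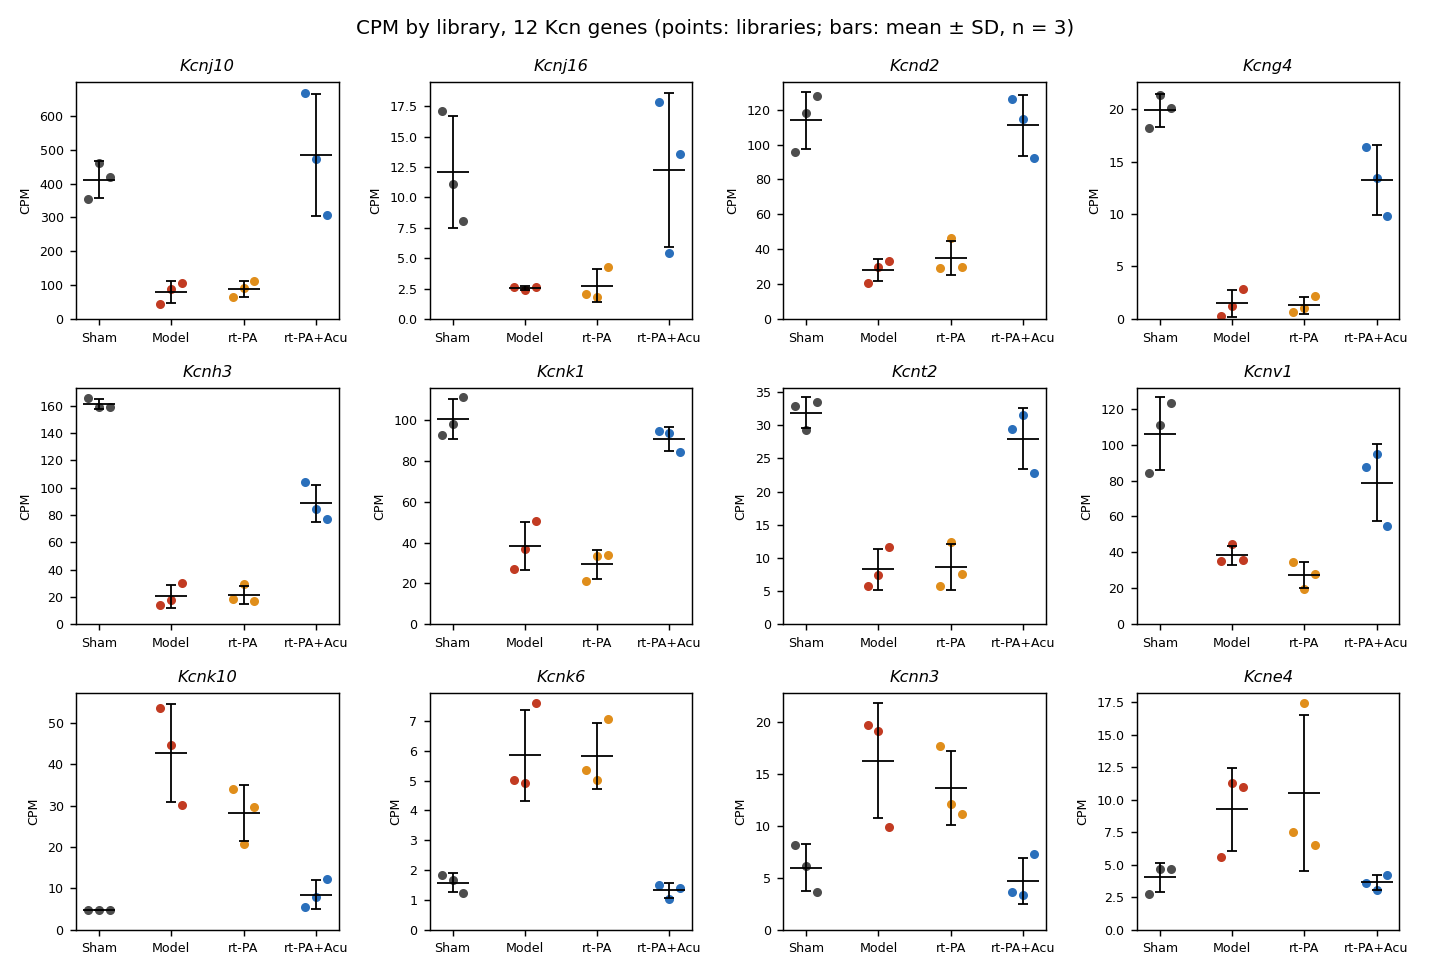
CPM of 12 Kcn genes in each of the 12 libraries (points), with the mean and SD of each group of 3 as bars on axes that start at 0. In the upper 8 genes Model and rt-PA lie below Sham and rt-PA+Acu, and in the lower 4 they lie above.

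Promoters of 4 members are shown because these genes separated the groups in both comparisons, 3 of them falling in Model and 1, Kcne4, rising. RefSeq windows of the GRCr8 build, from 250 bases before to 50 after a gene's start, were at hand for 61 of the 89 members (67 windows). Searched on both strands were the cyclic AMP response element TGACGTCA, the AP-1 site TGANTCA and ACGTG, the core of the hypoxia response element, which can overlap the first. Capitals mark matches.
Kcnj10, chr13:87334260-87334559, plus strand: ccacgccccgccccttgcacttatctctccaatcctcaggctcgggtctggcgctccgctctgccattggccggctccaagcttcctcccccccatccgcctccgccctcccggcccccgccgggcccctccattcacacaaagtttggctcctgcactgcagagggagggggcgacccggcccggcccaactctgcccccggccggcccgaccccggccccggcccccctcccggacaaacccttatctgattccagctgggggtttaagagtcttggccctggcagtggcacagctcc
Kcnj16, chr10:96517074-96517373, plus strand: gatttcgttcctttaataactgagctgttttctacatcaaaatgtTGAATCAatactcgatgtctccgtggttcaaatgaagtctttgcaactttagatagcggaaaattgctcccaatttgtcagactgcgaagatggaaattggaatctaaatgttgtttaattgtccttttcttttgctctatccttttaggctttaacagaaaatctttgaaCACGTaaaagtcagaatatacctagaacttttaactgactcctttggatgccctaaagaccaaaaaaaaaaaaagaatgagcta
Kcnd2, chr4:50742235-50742534, plus strand: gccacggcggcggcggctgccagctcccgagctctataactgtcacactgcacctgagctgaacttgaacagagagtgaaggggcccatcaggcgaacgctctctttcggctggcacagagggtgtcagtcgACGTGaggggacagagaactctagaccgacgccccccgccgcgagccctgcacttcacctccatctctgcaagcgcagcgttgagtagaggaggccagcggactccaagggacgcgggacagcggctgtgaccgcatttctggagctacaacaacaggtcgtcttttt
Kcne4, chr9:87695798-87696097, plus strand: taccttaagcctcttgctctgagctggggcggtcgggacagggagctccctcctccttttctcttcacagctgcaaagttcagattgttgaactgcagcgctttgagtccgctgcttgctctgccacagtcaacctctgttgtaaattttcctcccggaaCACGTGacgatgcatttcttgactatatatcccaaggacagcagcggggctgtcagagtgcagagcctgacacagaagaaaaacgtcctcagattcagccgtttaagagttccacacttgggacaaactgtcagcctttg
Kcnj10 held none of the 3 motifs, Kcnj16 an AP-1 site and an ACGTG, Kcnd2 an ACGTG, and Kcne4 a CACGTG that reads ACGTG on both strands. Across the Kcn windows, 0 of 67 held the cyclic AMP element (1.83% of 33469 windows in the RefSeq table), 3 held an AP-1 site (4.48%, all windows 7.33%) and 9 held ACGTG (13.4%, all windows 19.3%). ACGTG was present for 3 of the 25 genes with a window that were lower in Model and for 1 of the 7 that were higher. A match describes letters in this window only.

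Two-pore-domain (Kcnk) channels, which carry the leak current at rest, were called in both directions. Of 10 tested, 3 were lower (30%, all genes 26.6%) and 2 higher (20%, all genes 27.3%) in Model. With acupuncture, 3 were higher (30%, all genes 17%) and 2 lower (20%, all genes 17.7%) than with rt-PA alone. Most of these shares were near those of all genes. Kcnk10, an arachidonic acid- and stretch-sensitive leak channel, had the largest rise in Model of the 73 Kcn genes tested. Kcnk10 had 4.91, 4.74 and 4.8 CPM in the Sham libraries, 53.7, 44.6 and 30.1 CPM in the Model libraries, 34.1, 20.8 and 29.8 CPM with rt-PA alone and 5.48, 7.85 and 12.2 CPM with acupuncture added. The mean of the Sham libraries was 4.82 ± 0.0881 CPM (SD, n = 3), and no other group reached down to them. Kcnk10 was 8.92-fold higher in Model (log2 fold change 3.16, SE 0.23, adjusted p = 3.08e-05) and 3.29-fold lower with acupuncture than with rt-PA alone (log2 fold change -1.72, SE 0.32, adjusted p = 0.00715). Against Sham, rt-PA+Acu was still above in all 3 libraries, a difference that did not pass after adjustment (0.83 ± 0.30 SE, adjusted p = 0.153). Kcnk6 values were 1.85, 1.68 and 1.22 CPM in Sham, 5.04, 4.91 and 7.6 CPM in Model, 5.34, 5.03 and 7.08 CPM with rt-PA alone and 1.52, 1.05 and 1.42 CPM with acupuncture added. Its rise (1.88 ± 0.31 SE, adjusted p = 0.00138) and its lower level in rt-PA+Acu (-2.12 ± 0.30 SE, adjusted p = 0.00308) separated the groups fully at a low level.

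Falling members of the family included Kcnk1, a weakly rectifying leak channel of neurons and astrocytes. Kcnk1 had 92.4, 98.1 and 111 CPM in the Sham libraries, 27.1, 36.9 and 50.7 CPM in the Model libraries, 21.1, 33.3 and 33.8 CPM with rt-PA alone and 94.7, 93.5 and 84.2 CPM with acupuncture added. The difference was -1.39 ± 0.20 (SE, adjusted p = 0.000696) in the stroke comparison and 1.63 ± 0.19 (SE, adjusted p = 0.00165) in the acupuncture comparison, with no overlap. Kcnk4, a mechanosensitive relative of Kcnk10, went the opposite way to it, with 78.8, 63.5 and 69.7 CPM in Sham, 28.2, 13.6 and 31.1 in Model, 20.1, 18.2 and 16.7 with rt-PA alone and 54.5, 37.7 and 31 with acupuncture added. Its rt-PA+Acu libraries stayed below Sham, at an adjusted p of 0.0591. Acid-sensitive Kcnk9 fell from 24 ± 2.77 CPM in Sham to 9.79 ± 1.21 in Model (-1.28 ± 0.16 SE, adjusted p = 0.000338) and was at 21.3 ± 0.616 with acupuncture added (0.90 ± 0.19 SE, adjusted p = 0.0101 against rt-PA). Kcnk2, the third of the mechanosensitive group, had 69.6 ± 12.5 CPM in Sham, 57.9 ± 12.4 in Model and 46.2 ± 10.15 with acupuncture added. It passed in no comparison in edgeR's test, and neither did Kcnk3, Kcnk12 or Kcnk13, the last a channel of microglia. DESeq2 called 2 Kcnk genes, Kcnk2 and Kcnk4, lower in rt-PA+Acu than in Sham.

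Kcnq3 and Kcnq5, subunits of the M current that restrains repetitive firing, were lower in Model and higher with acupuncture. Kcnq3 values were 137, 143 and 152 CPM in Sham, 75.7, 78.8 and 66.7 CPM in Model, 40.5, 77.4 and 66.8 CPM with rt-PA alone and 114, 146 and 98.6 CPM with acupuncture added. All Model libraries lay below all Sham libraries (-0.96 ± 0.10 SE, adjusted p = 0.00012), and all rt-PA+Acu above all rt-PA libraries (0.96 ± 0.25 SE, adjusted p = 0.0222), a call lost without rt-PA replicate 3, rt-PA+Acu replicate 1 or rt-PA+Acu replicate 2. Kcnq5 had 97 ± 13.4 CPM in Sham, 53.6 ± 10.2 in Model, 45.6 ± 2.57 with rt-PA alone and 106 ± 32.8 with acupuncture added (SD, n = 3), with log2 fold changes of -0.85 ± 0.15 (SE, adjusted p = 0.00212) and 1.22 ± 0.22 (SE, adjusted p = 0.00706).

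Small-conductance calcium-activated channels of the Kcnn family, which contribute to the afterhyperpolarisation that follows action potentials, passed the test in both directions. Kcnn2 values were 46.1, 48.2 and 41.9 CPM in Sham, 17.9, 22 and 27.4 CPM in Model, 18.6, 16.4 and 21.4 CPM with rt-PA alone and 48.6, 35.5 and 29 CPM with acupuncture added. It was lower in Model (-1.01 ± 0.16 SE, adjusted p = 0.000974) and higher with acupuncture (1.00 ± 0.21 SE, adjusted p = 0.0105). Kcnn3, by contrast, had 8.13, 6.19 and 3.67 CPM in Sham and 19.8, 19.2 and 9.91 in Model, then 17.8, 12.1 and 11.1 with rt-PA alone and 3.62, 3.32 and 7.31 with acupuncture added. It was 2.72-fold higher in Model (log2 fold change 1.45, SE 0.35, adjusted p = 0.00828) and 2.85-fold lower with acupuncture (log2 fold change -1.51, SE 0.35, adjusted p = 0.0151), the second call being lost without rt-PA replicate 1, rt-PA+Acu replicate 1 or rt-PA+Acu replicate 2. Kcnn1 rose less (0.62 ± 0.21 SE, adjusted p = 0.0328) and was lower with acupuncture (-0.76 ± 0.25 SE, adjusted p = 0.0466). Its rise was lost without Sham replicate 1, Sham replicate 3, Model replicate 2 or Model replicate 3, and its lower level with acupuncture without any 1 library other than rt-PA+Acu replicate 1.

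Kcnn4, the intermediate-conductance channel of microglia, lymphocytes and endothelium, had too few counts in Sham and Model to be tested in the stroke comparison. Its values were 0.403, 0.382 and 0.262 CPM in Sham, 2.14, 1.78 and 0.743 CPM in Model, 6.11, 4.17 and 1.7 CPM with rt-PA alone and 1.18, 0.698 and 1.57 CPM with acupuncture added. The 3 rt-PA libraries lay above all rt-PA+Acu libraries (-1.78 ± 0.53 SE, adjusted p = 0.0367), a call lost without rt-PA replicate 1, rt-PA replicate 2, rt-PA+Acu replicate 1 or rt-PA+Acu replicate 2. Markers of infiltrating myeloid cells moved the same way, with all 6 lower with acupuncture than with rt-PA alone, and summed to 61.1 to 79.96 CPM in Sham, 218 to 328 in Model, 300 to 551 in rt-PA and 54.1 to 103 in rt-PA+Acu. The myeloid marker Ccr2 was at 0 in Sham replicate 1 and rt-PA+Acu replicate 1. The 3 endothelial markers measured were also all lower with acupuncture, with sums of 68.8 to 95.5 CPM in Sham, 161 to 296 in Model, 181 to 289 with rt-PA alone and 44.2 to 51.9 with acupuncture added. Markers of resting microglia went the other way, 5 of 5 tested being lower in Model and 2 higher with acupuncture, with sums of 355 to 447 CPM in Sham, 171 to 200.4 in Model, 192 to 213 with rt-PA alone and 280 to 323 with acupuncture added. The part of these cells in the level of Kcnn4 was not tested.

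Large-conductance channels changed little: Kcnma1, the pore, was 0.36 ± 0.12 (SE, adjusted p = 0.0344) on the log2 scale in the stroke comparison, a call lost when any 1 library other than Model replicate 3 was left out, and 0.19 ± 0.17 (SE, adjusted p = 0.4) in the acupuncture comparison. Its neuronal subunit Kcnmb4 was lower in Model by a small amount (-0.31 ± 0.10 SE, adjusted p = 0.0301), also lost when any 1 library other than Model replicate 3 was left out. The sodium-activated channels differed from each other. Kcnt2 had 32.9, 29.3 and 33.4 CPM in the Sham libraries, 5.8, 7.37 and 11.7 CPM in the Model libraries, 5.83, 12.4 and 7.6 CPM with rt-PA alone and 29.4, 31.6 and 22.8 CPM with acupuncture added. Kcnt2 fell 3.84-fold in Model (log2 fold change -1.94, SE 0.24, adjusted p = 0.000309) and was 3.24-fold higher with acupuncture (log2 fold change 1.70, SE 0.28, adjusted p = 0.00527). Kcnt1 stayed between 93.7 and 133 CPM in all 12 libraries, with a log2 fold change of -0.03 ± 0.12 (SE, adjusted p = 0.819) in the stroke comparison.

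In the Kcnh family of voltage-gated channels, 4 of 8 tested were lower in Model (all genes 26.6%) and none higher (all genes 27.3%). In rt-PA+Acu, 4 of 7 were higher than in rt-PA (all genes 17%). Kcnh3 had 165, 159 and 159 CPM in the Sham libraries, 14.2, 17.5 and 30.2 CPM in the Model libraries, 18.9, 29.4 and 17 CPM with rt-PA alone and 104, 84.7 and 77.2 CPM with acupuncture added. Kcnh3, a channel of forebrain neurons, fell 7.78-fold in Model (log2 fold change -2.96, SE 0.24, adjusted p = 4.9e-05) and was 4.07-fold higher with acupuncture than with rt-PA alone (log2 fold change 2.02, SE 0.22, adjusted p = 0.00149). Kcnh2, which also carries the rapid repolarising current of the heart, had 26.5, 31.8 and 26.4 CPM in Sham, 12.8, 15.2 and 21.6 in Model, 10.1, 15.4 and 16 with rt-PA alone and 33.5, 33.7 and 37.8 with acupuncture added. The rt-PA+Acu libraries lay above every other library for Kcnh2 (-0.77 ± 0.20 SE, adjusted p = 0.0117 in the stroke comparison and 1.34 ± 0.20 SE, adjusted p = 0.00344 in the acupuncture comparison). Kcnh7 passed in the second (1.11 ± 0.30 SE, adjusted p = 0.0245, against -0.70 ± 0.27 SE, adjusted p = 0.0536 in the first), and that call was lost without rt-PA replicate 1, rt-PA replicate 3, rt-PA+Acu replicate 1 or rt-PA+Acu replicate 2. Kcnh1 passed in neither (0.24 ± 0.12 SE, adjusted p = 0.129 and 0.21 ± 0.14 SE, adjusted p = 0.274).

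Kcng, Kcns, Kcnv and Kcnf subunits form no channel alone but change other voltage-gated channels. They held the largest fall of the 73 Kcn genes tested. Kcng4 had 18.2, 21.4 and 20.1 CPM in the Sham libraries, 0.305, 1.27 and 2.89 CPM in the Model libraries, 0.624, 1.08 and 2.14 CPM with rt-PA alone and 16.4, 13.4 and 9.78 CPM with acupuncture added. Kcng4 was 13.4-fold lower in Model (log2 fold change -3.74, SE 0.51, adjusted p = 0.000484) and 10.3-fold higher with acupuncture (log2 fold change 3.36, SE 0.43, adjusted p = 0.00222), with the lowest Model library just above the level of 3 counts. Kcng1 had 34.7, 36.8 and 33.5 CPM in Sham, 3.21, 5.33 and 6.69 in Model, 10.1, 5.46 and 5.75 with rt-PA alone and 16.8, 31.8 and 19.7 with acupuncture added. It was lower in Model (-2.78 ± 0.24 SE, adjusted p = 5.73e-05), and its rt-PA+Acu libraries lay above rt-PA (1.67 ± 0.33 SE, adjusted p = 0.00866) and below Sham, the latter without passing the test (adjusted p = 0.141). Kcng3, in contrast, rose from 1.9 ± 0.176 CPM in Sham to 7.06 ± 1.55 in Model (SD, n = 3, 3.73-fold, adjusted p = 0.000635), and was at 4.95 ± 2.44 with rt-PA alone and 2.23 ± 1.35 in rt-PA+Acu, groups that overlapped (-1.14 ± 0.56 SE, adjusted p = 0.152).

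Kcnv1 was lower in Model (-1.46 ± 0.16 SE, adjusted p = 0.000181) and higher with acupuncture (1.52 ± 0.26 SE, adjusted p = 0.00559), with 106 ± 20.2, 38.5 ± 5.18, 27.4 ± 7.27 and 78.9 ± 21.3 CPM (SD, n = 3) in Sham, in Model, with rt-PA alone and with acupuncture added. Kcns2 passed in neither comparison, and Kcns1 fell (-1.50 ± 0.32 SE, adjusted p = 0.00457). Its higher level in rt-PA+Acu (1.12 ± 0.37 SE, adjusted p = 0.0495) came with groups that overlapped and was lost when any 1 library other than rt-PA+Acu replicate 2 was left out. Kcnf1 and Kcns3 leaned the other way: Kcnf1 was higher in Model (0.54 ± 0.17 SE, adjusted p = 0.0287) and lower with acupuncture (-0.38 ± 0.11 SE, adjusted p = 0.0318), and Kcns3 was lower with acupuncture (-0.81 ± 0.24 SE, adjusted p = 0.0372). The Kcnf1 rise was lost without Sham replicate 2, Sham replicate 3, Model replicate 1 or Model replicate 2, and the Kcns3 and Kcnf1 calls in rt-PA+Acu were each lost without any 1 of 5 of the 6 libraries, the exceptions being rt-PA replicate 2 for Kcns3 and rt-PA replicate 3 for Kcnf1.

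All 4 Kcnip genes, calcium sensors that bind Kcnd channels, were lower in Model (all genes 26.6%). Log2 fold changes were -0.98, -0.61, -0.96 and -0.95 for Kcnip1 to Kcnip4, with adjusted p of 0.00106, 0.00149, 0.00763 and 0.00119. Only Kcnip3 and Kcnip4 passed as higher in rt-PA+Acu (all genes 17%). Kcnip4 values were 16, 17.6 and 18.3 CPM in Sham, 8.02, 9.82 and 8.92 CPM in Model, 6.31, 11.6 and 10.8 CPM with rt-PA alone and 22.5, 25.1 and 19.9 CPM with acupuncture added. Its rt-PA+Acu libraries lay above every other library (1.24 ± 0.24 SE, adjusted p = 0.0085 against rt-PA). Kcnip3 had 76.2 ± 13 CPM in rt-PA and 131 ± 30.5 with acupuncture added (0.78 ± 0.20 SE, adjusted p = 0.0199), a call lost without rt-PA replicate 1, rt-PA replicate 2, rt-PA+Acu replicate 1 or rt-PA+Acu replicate 2.

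The Kcnab genes, cytoplasmic subunits of Kcna channels, showed 2 directions. Kcnab1 values were 119, 149 and 145 CPM in Sham, 223, 227 and 233 CPM in Model, 157, 204 and 235 CPM with rt-PA alone and 138, 134 and 124 CPM with acupuncture added. Model lay above Sham (0.73 ± 0.10 SE, adjusted p = 0.000505) and rt-PA+Acu below rt-PA (-0.59 ± 0.15 SE, adjusted p = 0.0236), the latter lost without rt-PA replicate 2, rt-PA replicate 3, rt-PA+Acu replicate 1 or rt-PA+Acu replicate 2. Kcnab2 fell from 252 ± 30.9 CPM in Sham to 128 ± 10.9 in Model (-0.98 ± 0.11 SE, adjusted p = 0.000225) and was higher with acupuncture (1.11 ± 0.24 SE, adjusted p = 0.0126), and Kcnab3 passed in neither comparison. Kcne4, which dampens Kcna and Kcnq channels, had 2.74, 4.66 and 4.71 CPM in Sham and 5.57, 11.3 and 11 in Model, and 7.56, 17.5 and 6.56 with rt-PA alone and 3.62, 3.05 and 4.25 with acupuncture added. Model was above Sham (1.20 ± 0.33 SE, adjusted p = 0.0157) and rt-PA+Acu below rt-PA (-1.52 ± 0.40 SE, adjusted p = 0.0239), the first call being lost without Sham replicate 1 or Model replicate 2 and the second without rt-PA+Acu replicate 1 or rt-PA+Acu replicate 2.

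Lists of neuronal markers differed from each other in direction. Of 8 pan-neuronal markers, 3 were lower and 1 higher in Model, and their sum went from 6233 to 6976 CPM in Sham to 5620 to 5813 in Model, 4687 to 5653 in rt-PA and 4986 to 7565 in rt-PA+Acu. Of 7 cortical excitatory neuron markers, 6 were lower in Model and 6 higher with acupuncture than with rt-PA alone, with sums of 1825 to 2070 CPM in Sham, 905 to 1080 in Model, 692 to 923 in rt-PA and 1319 to 2530 in rt-PA+Acu. Of 5 interneuron markers, 2 were higher in Model and none lower, with sums of 657 to 697 CPM in Sham and 882 to 1087 CPM in Model. The part of fewer neurons in the neuronal Kcn genes was not tested.

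Potassium handling outside the Kcn genes was followed in 2 lists. Of 13 channel partners with other names, 11 were tested, 6 of which were lower and 1 higher in Model, and 7 higher and 2 lower with acupuncture than with rt-PA alone. Dpp10, which like Dpp6 binds Kcnd channels, had 119, 89.1 and 105 CPM in Sham, 37.2, 51.4 and 41.5 in Model, 28.9, 47.3 and 41.5 with rt-PA alone and 126, 144 and 92.7 with acupuncture added. The log2 fold change of Dpp10 was -1.26 ± 0.15 (SE, adjusted p = 0.000264) in the stroke comparison and 1.63 ± 0.22 (SE, adjusted p = 0.00279) in the acupuncture comparison, and that of Dpp6 was -0.92 ± 0.09 (SE, adjusted p = 0.000107) and 1.15 ± 0.18 (SE, adjusted p = 0.00454). Lrrc38, a subunit of Kcnma1 channels, was the 1 that rose (1.53 ± 0.34 SE, adjusted p = 0.00576), and it was lower with acupuncture (-1.17 ± 0.26 SE, adjusted p = 0.0126). Of 11 pump and cotransporter genes, 5 were lower and 2 higher in Model, and 4 were higher and 2 lower in rt-PA+Acu. Atp1b2, a beta subunit of the sodium-potassium pump, had 604, 587 and 539 CPM in Sham, 104, 169 and 226 in Model, 149, 167 and 228 with rt-PA alone and 631, 488 and 487 with acupuncture added (-1.79 ± 0.24 SE, adjusted p = 0.000449 and 1.56 ± 0.19 SE, adjusted p = 0.00197 on the log2 scale). Slc12a5, which exports potassium with chloride from neurons, was lower in Model (-1.57 ± 0.18 SE, adjusted p = 0.000217) and higher with acupuncture (1.54 ± 0.23 SE, adjusted p = 0.00369).

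Late thrombolysis alone gave 0 Kcn calls in edgeR and 4 in DESeq2. In rt-PA vs Model, 0 of 74 Kcn genes passed an adjusted p under 0.05 or the DEG rule in edgeR's quasi-likelihood test, and so did 0% of all 12941 genes under the first rule and 0% under the second. The smallest adjusted p of a Kcn gene was 0.191. At an unadjusted p under 0.05 there were 13 (17.6%, all genes 9.92%), of which 11 were lower in rt-PA and 2, Kcnc4 and Kcnn4, higher. Groups did not overlap in 11 genes (14.9%, all genes 15.9%), 10 of them lower in rt-PA, and the median log2 fold change was -0.11 against 0.00 overall. DESeq2 gave an adjusted p to 72 Kcn genes and called 4 lower in rt-PA (5.56%, all genes 0.868%) and 0 higher (all genes 0.675%). The smallest p belonged to Kcnj12, named after its values were seen, an inward rectifier related to Kcnj2 with 33.7, 25.9 and 28.1 CPM in Model and 15.8, 14.7 and 16.9 CPM in rt-PA (-0.89 ± 0.15 SE, adjusted p = 0.191). Kcnd3 (-0.56 ± 0.10 SE, adjusted p = 0.245), Kcnj4 (-0.72 ± 0.16 SE, adjusted p = 0.296) and Kcnh1 (-0.63 ± 0.14 SE, adjusted p = 0.301) followed, each with rt-PA libraries below all Model libraries.

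Against Sham, few Kcn genes were called in rt-PA+Acu at an adjusted p under 0.05, and all of those calls were lower. The shares of lower calls at any fold were near those of all genes. Of 73 tested, 4 were lower (5.48%, all genes 3.4%) and 0 higher (all genes 1.7%) at an adjusted p under 0.05 in edgeR's test. DEGs were 2 lower (2.74%, all genes 1.14%) and 0 higher (all genes 0.916%). At an unadjusted p under 0.05, 15 passed (20.5%, all genes 23.2%), 10 lower and 5 higher. DESeq2 called 6 lower (8.22%, all genes 7.03%) and 0 higher (all genes 4.21%). Groups did not overlap in 15 genes (20.5%, all genes 30.8%), and the median log2 fold change was -0.15 against 0.02 overall. The 4 lower calls became 2 without Sham replicate 1 or Sham replicate 3 and 1 without Sham replicate 2, and the 2 DEGs became 1 when any 1 Sham library was left out and 0 without rt-PA+Acu replicate 2. A missed threshold in the other genes does not show a return to the Sham level.

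Kcnip2 was the 1 of the 4 whose call held when each library was left out in turn, with an adjusted p of at most 0.048. Kcnip2 had 142, 138 and 170.0 CPM in the Sham libraries, 99.9, 94 and 100 CPM in the Model libraries, 116, 73.2 and 111 CPM with rt-PA alone and 79.6, 52.2 and 71.9 CPM with acupuncture added. All rt-PA+Acu libraries but the highest lay below every rt-PA library, and all lay below Model and Sham. It was 2.21-fold lower in rt-PA+Acu than in Sham (log2 fold change -1.14, SE 0.17, adjusted p = 0.0105), and lower than rt-PA without passing the test (-0.56 ± 0.22 SE, adjusted p = 0.0842). Kcnh3 was 1.82-fold lower than in Sham (log2 fold change -0.87, SE 0.12, adjusted p = 0.00885), which was lost without Sham replicate 2 and in 1 fit over all 12 libraries (adjusted p = 0.0632). Its rt-PA+Acu libraries lay between those of rt-PA and Sham.

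Kcnh4, a relative of Kcnh3 found in striatum and cortex, had 13, 17.1 and 19.3 CPM in Sham, 9.31, 11.4 and 8.01 in Model, 7.22, 4.53 and 7.38 with rt-PA alone and 6.07, 7.24 and 9.78 with acupuncture added. It was lower than in Sham in Model (-0.77 ± 0.21 SE, adjusted p = 0.0135, lost without Sham replicate 3) and in rt-PA+Acu (-1.09 ± 0.23 SE, adjusted p = 0.0388), and did not differ by the test between rt-PA+Acu and rt-PA (0.28 ± 0.28 SE, adjusted p = 0.474). Kcnip1 values were 32.5, 46.2 and 35.1 CPM in Sham, 18.6, 17.8 and 20.9 CPM in Model, 15.6, 22.3 and 20.3 CPM with rt-PA alone and 20.6, 23.1 and 24.2 CPM with acupuncture added. It was lower than Sham in Model (-0.98 ± 0.16 SE, adjusted p = 0.00106) and in rt-PA+Acu (-0.75 ± 0.16 SE, adjusted p = 0.0373). The calls against Sham of Kcnh4 and Kcnip1 in rt-PA+Acu were each lost without any 1 Sham library and without rt-PA+Acu replicate 1 or 2. Both were also lost with library size alone as scaling, and that of Kcnip1 with the replicate number as a block.

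Striatal neurons are rich in Kcnip2 and Kcnh4, and their markers shared the fall below Sham: 4 of 5 were called lower in rt-PA+Acu. The 5 summed to 186, 704 and 544 CPM in Sham and 66.2 to 151 in Model. Their sums were 65.2 to 112 CPM in rt-PA and 112 to 209 in rt-PA+Acu. Most of the rt-PA+Acu sums, which were 209, 185 and 112 CPM, was Ppp1r1b, at 182, 163 and 90.9 CPM. With rt-PA alone Ppp1r1b had 39.5, 65.6 and 76 CPM. In the acupuncture comparison the markers split. Ppp1r1b was higher (1.265 ± 0.31 SE, adjusted p = 0.0182), and 4 had a negative log2 fold change without a call. None of the 5 was at 0 in any library. In Sham, Kcnip2 lay within 138 and 170 CPM, while the sum of striatal markers spanned 186 to 704 CPM. The part of striatal tissue in the lower Kcnip2 and Kcnh4 was not tested.

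**Figure D4:**
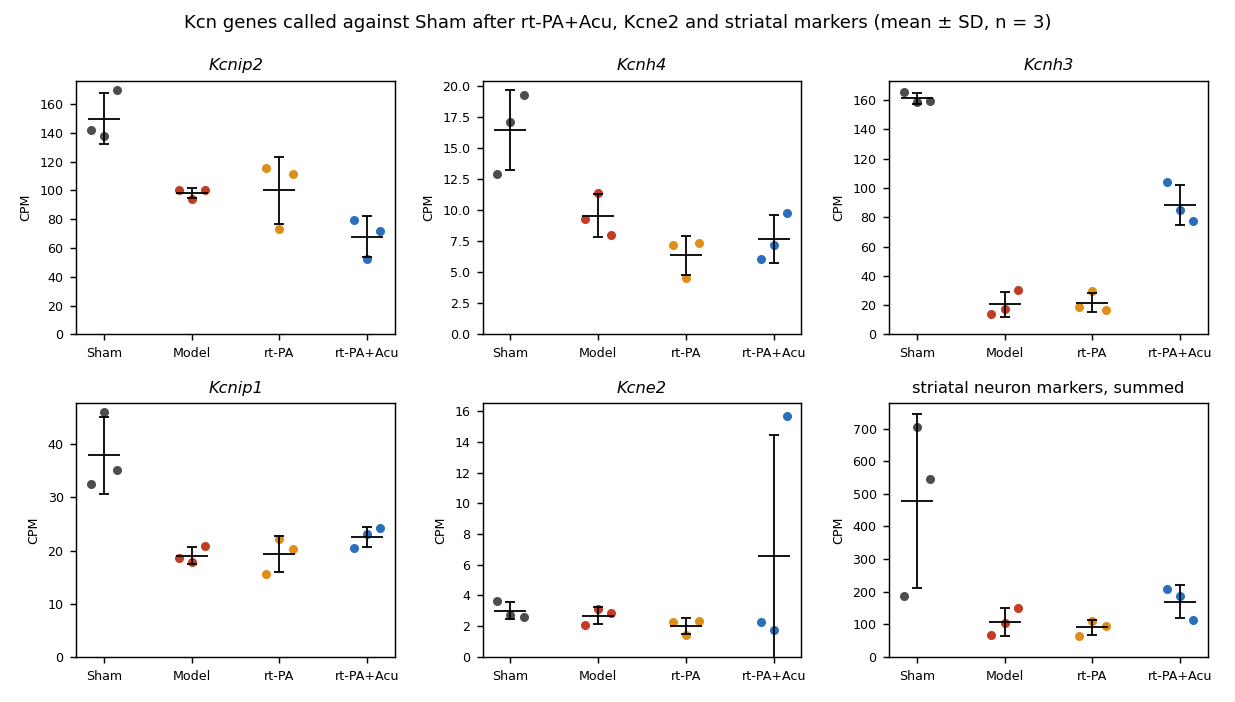
CPM in each library (points), with group means and SD (bars, cut off at 0), for the 4 Kcn genes called lower against Sham in rt-PA+Acu, for Kcne2, and for the sum of 5 striatal neuron markers. Sham libraries of Kcnip2 lie close together, while those of the striatal markers spread over 186 to 704 CPM, and Kcne2 is high in 1 rt-PA+Acu library.

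Kcne2, a subunit of Kcnq1 and Kcnh2 channels that is abundant in the choroid plexus, rested on 1 library. Kcne2 had 3.62, 2.75 and 2.62 CPM in the Sham libraries, 2.06, 3.13 and 2.89 CPM in the Model libraries, 2.29, 1.44 and 2.36 CPM with rt-PA alone and 2.27, 1.75 and 15.7 CPM with acupuncture added. The rt-PA+Acu replicate 3 library held 210 counts, against 20 to 45 in each of the other 11. Its log2 fold change in the acupuncture comparison (1.71 ± 0.82 SE, adjusted p = 0.144) did not pass the test. The 8 choroid plexus markers summed to 2.16 CPM in that library, to 1.60 and 1.40 CPM in rt-PA+Acu replicates 1 and 2 and to 1.40 to 1.68 CPM in Sham. They summed to 9.91 to 19.4 CPM in Model, of which Kl alone had 7.85 to 16.25 CPM, and to 4.65 to 7.89 CPM in rt-PA. Ttr and Otx2 were at 0 in all 3 rt-PA+Acu libraries, while Clic6 had 0, 1 and 11 counts in replicates 1, 2 and 3. The part of choroid plexus tissue in the level of Kcne2 was not tested.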

How the data were processed

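The authors aligned paired-end reads to the rat genome build mRatBN7.2 with STAR 2.7.10a and deposited a table of raw whole-number counts, 1 row per gene and 1 column per library, neither normalized nor pooled. The study's methods name Salmon 1.9.0 as the counter with the Ensembl annotation, and the submitters' processing notes also list featureCounts 2.0.1. Whether the molecular identifiers of the adapters or the strand of the reads were used is not given in the sources used here, so limits drawn from counts hold for counting error alone and antisense reads may be included.

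Each comparison was fitted on its own 6 libraries in R 4.3.3 with edgeR 4.0.16 (TMM scaling, filterByExpr and the quasi-likelihood test). All genes tested entered the Benjamini-Hochberg adjustment. A DEG had to pass 0.05 after adjustment and change by over 1 on the log2 scale. CPM used TMM library sizes, and log2 fold changes edgeR's prior count of 0.125. The code was tested on simulated data. DESeq2 1.42.0, other scalings and filters, a replicate block and leaving out each library were the alternatives. Python 3.11.15 and matplotlib 3.10.9 drew the plots.

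Groups follow the labels. The members, gene lists and marker lists were chosen with earlier results of these data known. Genes are named when they are on a list of channel genes with a known role, when they were among the 5 largest rises or 5 largest falls of a comparison at an adjusted p under 0.05 and a mean of at least 1 CPM, when they were DEGs in rt-PA vs Model or rt-PA+Acu vs Sham, or where the text says so. Promoter windows came from RefSeq on GRCr8, another build than the counts, and were matched by symbol. Some members and other genes are not reported here by name.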

Additional observations from a re-analysis of the deposited data

How the results depend on the processing

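Calls in the stroke and acupuncture comparisons kept their totals within 1.5 times under every alternative, from 20 to 31 DEGs and 40 to 54 calls at any fold in the first and from 19 to 28 and 27 to 39 in the second when 1 library was left out, and 0 calls changed direction. The median log2 fold change of the stroke comparison went from -0.61 to -0.47 without Sham replicate 3. In rt-PA vs Model, 0 Kcn genes passed an adjusted p under 0.05 in edgeR, 4 passed in DESeq2 and 13 at an unadjusted p, 1 of them a DEG by fold. In rt-PA+Acu vs Sham, the 2 DEGs became 1 and the 4 calls 2 with library size alone as scaling, 15 genes passed at an unadjusted p, and leaving out 1 library gave 0 to 2 DEGs and 1 to 4 calls. The cause of these differences was not tested, except that an unadjusted p passes more genes by construction and that leaving out a library lowers the number of samples.

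Replicate numbers did not pair the samples: deviations of same-numbered libraries correlated at -0.12 to 0.15 across 13298 genes. With the replicate number as a block, Kcn DEGs and calls at any fold were 25 and 50 in the stroke comparison, 0 and 0 for rt-PA against Model, 24 and 36 in the acupuncture comparison and 2 and 4 in rt-PA+Acu vs Sham. The lower DEGs of the acupuncture comparison went from 5 to 3 under the block. Its calls of Kcnab1, Kcne4, Kcnf1, Kcnj9 and Kcnn4 were lost under the block. Library size alone lost its call of Kcns1, 1 fit over all 12 libraries that of Kcnf1, and no filter beyond 1 count that of Kcnn1. In the stroke comparison, 1 fit over all 12 libraries lost Kcnma1 and Kcnmb4, and library size alone lost Kcnmb4. Low counts limit what can be said of the 12 members that were not tested and of Kcng4, Kcnk6 and Kcnn4 in the groups where they were lowest.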
